A study of Mus musculus with 15 samples.

Results

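Cholesterol synthesis and sterol control were followed gene by gene in liver RNA sequencing of mice that lack Clever-1, the scavenger receptor encoded by Stab1. A set of 29 genes was named for this purpose, covering the enzymes that build the sterol, the proteins that sense it and the proteins that move it. The table held 28 of these symbols, each in a single row, among 19464 rows in all. The symbol Msmo1 was absent, but the Entrez identifier of that gene stood under its older symbol Sc4mol and is described apart from the counts. The data comprised 15 liver libraries from Stab1 knock-out (Stab1-/-) and wildtype mice, all on a mixed C57BL/6N;129SvJ background. At 2 weeks of age there were 4 Stab1-/- and 4 wildtype libraries, and in embryos at E17.5 there were 3 Stab1-/- and 4 wildtype libraries. The comparisons asked whether the loss of Clever-1 changed these genes at either stage, how they changed between the stages in each genotype, and whether the effect of genotype differed between the stages.

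Cells make cholesterol from acetyl-CoA in a mevalonate arm, which ends in farnesyl and geranylgeranyl diphosphate, and a sterol arm, which runs from squalene through lanosterol to cholesterol. The transcription factor SREBP-2 (Srebf2) is escorted by SCAP to the Golgi when membrane sterol is low and turns on most genes of both arms, and the INSIG proteins hold the SCAP complex back when sterol is high. In the liver, sterol is also secreted into bile by the transporter pair ABCG5 and ABCG8.

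Reads assigned to genes numbered between 9.66 M and 10.96 M (M, megareads) per library. Levels are given as RPKM, read counts scaled to gene length and to the total reads of the library, which allows genes of different length to be set side by side. Fold changes are on the log2 scale from read counts fitted with edgeR's quasi-likelihood test after TMM scaling, and a gene was called at a Benjamini-Hochberg adjusted p under 0.05 over all genes tested. The Stab1 transcript itself was lower in each Stab1-/- library, at 0.862 to 1.54 RPKM against 7.30 to 11.03 RPKM in wildtype at 2 weeks, and at 3.598 to 5.227 RPKM against 14.9 to 21.8 RPKM at E17.5. All 7 hepatocyte markers had reads in every library. The labels describe separate mice only by replicate numbers, so the p-values measure the spread between these libraries.

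Most of the set was lower at 2 weeks than at E17.5, while the sterol exporters and a few control genes were higher. In wildtype livers 26 of the 27 genes tested were called between the stages, 19 lower and 7 higher at 2 weeks. In Stab1-/- livers 25 of 27 were called, 18 lower and 7 higher. Npc1l1 did not pass the filter on low counts in any comparison. Calls were common among all genes as well, with 71.9% of the genes tested in wildtype (34.9% higher, 37% lower) and 72.5% in Stab1-/- (35.7% higher, 36.8% lower). The median log2 change of the tested members was −0.94 in wildtype and −1.10 in Stab1-/-, against −0.01 over all genes in each genotype. The median size of the change, irrespective of direction, was 1.48 for the members and 0.69 for all genes in wildtype. The libraries of the 2 stages did not overlap in RPKM for 26 of the 27 tested members in wildtype and 25 in Stab1-/-, where 69.1% and 72% of all tested genes were likewise apart.

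**Figure D1:**
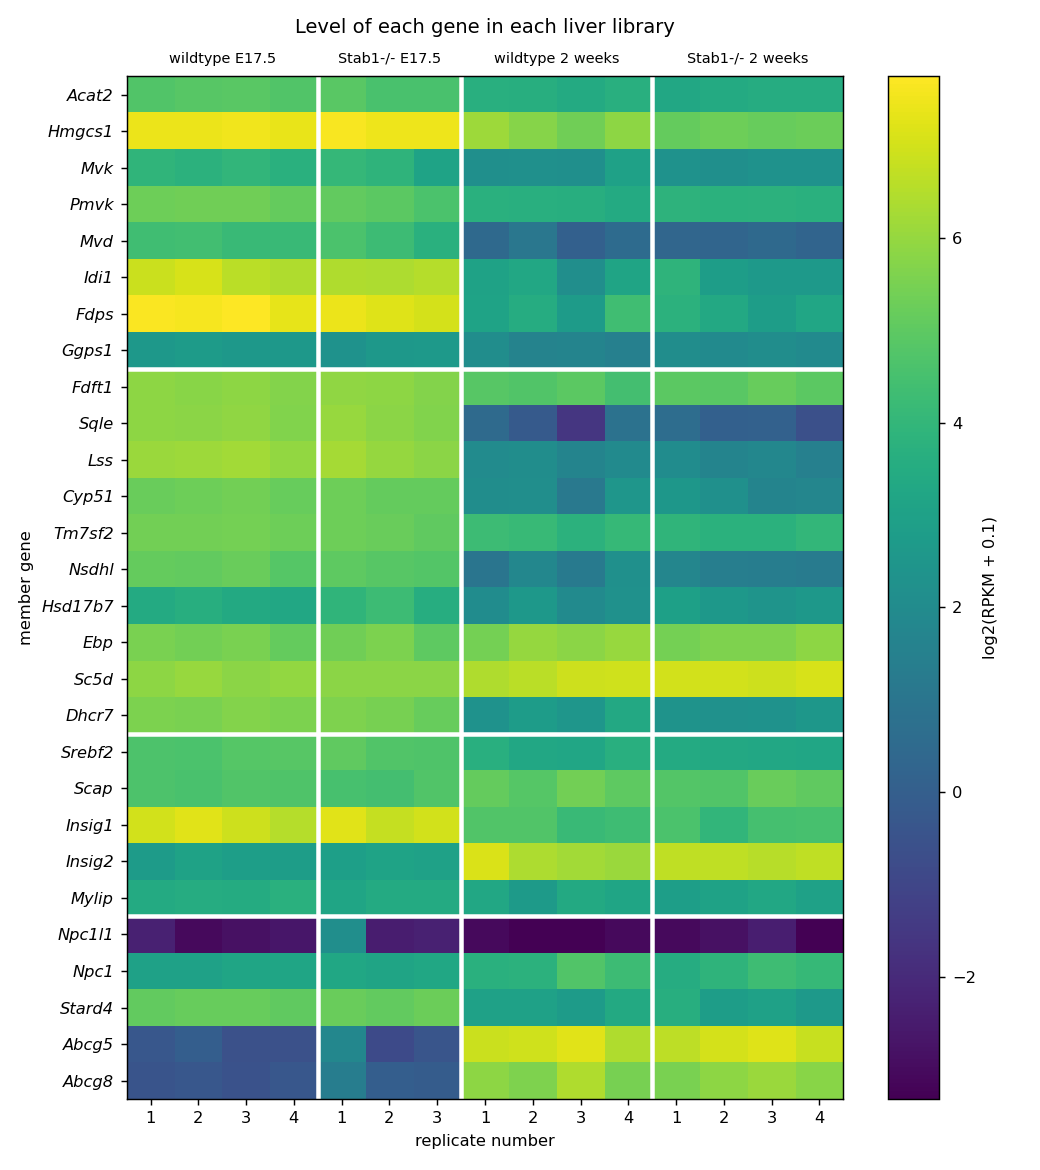
Heat map of log2(RPKM + 0.1) for the 28 genes (vertical axis, grouped by white lines into mevalonate arm, sterol arm, sterol sensing and sterol transport) in the 15 libraries (horizontal axis, replicate numbers within each group). Fdps, Hmgcs1, Insig1 and Idi1 are brightest at E17.5, while Abcg5, Sc5d and Insig2 are brightest at 2 weeks.

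These bulk libraries hold all cells of the liver, and a smaller share of cells that express a gene cannot be told apart from less RNA of that gene per cell. Stage and any unlabelled preparation batch cannot be told apart either. The make-up of the tissue differed between the stages. The summed level of 9 erythroid markers was 9963 to 13432 RPKM in the E17.5 libraries and 193 to 442 RPKM at 2 weeks, and that of 5 proliferation markers was 334 to 493 RPKM at E17.5 and 15.7 to 40.2 RPKM at 2 weeks. In wildtype the sum of the 7 hepatocyte markers was 43933 to 47679 RPKM at E17.5 and 60568 to 79013 RPKM at 2 weeks. In Stab1-/- it was 47685 to 55065 RPKM at E17.5 and 44852 to 56778 RPKM at 2 weeks. All 7 were called higher at 2 weeks in wildtype and 6 of them in Stab1-/-, with none called lower. The sum of 7 granulocyte markers was 3427.7 to 7940.1 RPKM at E17.5 and 29.97 to 402.7 RPKM at 2 weeks, with all 7 called lower in each genotype. The part of these cell types in the stage differences below was not tested.

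The mevalonate arm fell throughout in wildtype livers, where all 8 tested genes were called lower at 2 weeks. Its steepest falls lay in the late steps. Fdps encodes farnesyl diphosphate synthase, which makes the branch point metabolite of the pathway. Its levels in the 4 wildtype E17.5 libraries were 208, 192, 215 and 161 RPKM, and in the 4 wildtype libraries at 2 weeks 8.40, 11.3, 6.56 and 20.3 RPKM. Replicate 4 was the highest of the 2-week libraries, and the stages were far apart. The log2 change was −3.69 (SE 0.30, edgeR adjusted p = 2.8e-07). In Stab1-/- livers Fdps went from 174, 147 and 132 RPKM to 13.7, 10.1, 7.005 and 9.38 RPKM, a log2 change of −3.68 (SE 0.18).

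Idi1 encodes isopentenyl diphosphate isomerase, which supplies dimethylallyl diphosphate to that synthase. Wildtype levels were 118, 134, 98.7 and 86.0 RPKM at E17.5 and 8.25, 9.79, 4.34 and 8.84 RPKM at 2 weeks, with replicate 3 lowest at the later stage. The log2 change was −3.45 (SE 0.23, edgeR adjusted p = 4.2e-08). The Stab1-/- levels were 86.2, 83.2 and 91.7 RPKM at E17.5 and 14.7, 7.15, 6.18 and 6.34 RPKM at 2 weeks, and replicate 1 stood above the other 3 at 2 weeks.

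Mvd encodes mevalonate diphosphate decarboxylase, the step before that isomerase. Its wildtype levels were 20.5, 20.7, 18.1 and 18.2 RPKM at E17.5 and 1.28, 2.00, 0.960 and 1.36 RPKM at 2 weeks. No library of one stage reached the levels of the other, and the log2 change was −3.43 (SE 0.17, edgeR adjusted p = 3.0e-09). In Stab1-/- livers the E17.5 levels of Mvd were more scattered, at 24.3, 19.1 and 13.1 RPKM, and the 2-week levels were 1.14, 1.12, 1.28 and 1.10 RPKM.

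The earlier steps and the geranylgeranyl branch fell less. Pmvk (phosphomevalonate kinase), Hmgcs1 (HMG-CoA synthase), Mvk (mevalonate kinase), Acat2 (the cytosolic thiolase that opens the pathway) and Ggps1 (geranylgeranyl diphosphate synthase) had log2 changes in wildtype between −1.32 and −0.55. Ggps1 was the smallest of these, at 6.05 ± 0.350 RPKM (SD, n = 4) at E17.5 and 3.23 ± 0.642 RPKM (SD, n = 4) at 2 weeks. In Stab1-/- livers its log2 change was −0.27 (SE 0.14) and was not called (edgeR adjusted p = 0.102). The difference between the genotypes in that change was 0.30 (SE 0.19, edgeR adjusted p = 0.350). Ggps1, Idi1 and Hmgcs1 share exonic bases with an annotated gene on the opposite strand. Whether counting took strand into account is not given in the sources used here. Fdps shares 1124 exonic bases with Gm43738 on its own strand, where strand could not tell the reads apart.

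The sterol arm split by step. Of its 10 tested genes 8 were called lower and 2 called higher at 2 weeks in each genotype. Squalene epoxidase, Sqle, is a rate-limiting enzyme of this arm and changed most. Wildtype levels of Sqle were 58.0, 56.3, 59.7 and 49.6 RPKM at E17.5 and 1.32, 0.771, 0.240 and 1.71 RPKM at 2 weeks, the last group resting on 38, 21, 7 and 50 reads. Replicate 3 was the lowest of these, and the highest 2-week library lay far under the lowest E17.5 library. The log2 change was −5.42 (SE 0.32, edgeR adjusted p = 1.5e-08). Stab1-/- livers went, for Sqle, from 65.6, 57.1 and 50.4 RPKM to 1.48, 0.963, 0.980 and 0.561 RPKM, a log2 change of −5.63 (SE 0.19).

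Lanosterol synthase, Lss, closes the sterol rings. Its wildtype levels were 68.3, 70.5, 74.6 and 61.8 RPKM at E17.5 and 3.95, 4.20, 3.10 and 3.88 RPKM at 2 weeks. The libraries within each stage lay close together, and the log2 change was −3.83 (SE 0.12, edgeR adjusted p = 1.1e-10). The corresponding change in Stab1-/- livers was −4.09 (SE 0.13).

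Nsdhl and Cyp51, which act in the demethylation of lanosterol, and Dhcr7, the reductase of the last step, fell by 2.45 to 3.12 on the log2 scale in wildtype. Tm7sf2 (a sterol C14 reductase), Hsd17b7 (a 3-keto reductase) and Fdft1 (squalene synthase) fell by 0.69 to 0.94. Fdft1 shares 774 exonic bases with Ctsb on the opposite strand, and Tm7sf2 shares 532 with Vps51 on its own strand. The row listed as Sc4mol, which by its identifier is Msmo1, the sterol C4 methyl oxidase, went from 75.9 ± 4.85 RPKM (SD, n = 4) to 9.80 ± 2.88 RPKM (SD, n = 4) in wildtype, a log2 change of −2.59 (SE 0.19, edgeR adjusted p = 9.3e-08).

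The 2 genes of the sterol arm that went the other way encode neighbouring late steps. Sc5d, the lathosterol C5 desaturase, had wildtype levels of 57.6, 66.3, 56.0 and 61.3 RPKM at E17.5 and 87.3, 96.0, 118 and 123 RPKM at 2 weeks. The stages did not overlap, and the log2 change was 1.19 (SE 0.13, edgeR adjusted p = 6.3e-06). With 55.9 to 57.1 RPKM at E17.5 and 121 to 134 RPKM at 2 weeks, Stab1-/- livers had a log2 change of 1.39 (SE 0.10). Ebp, the sterol isomerase that acts before Sc5d, rose by 0.81 on the log2 scale (SE 0.15, edgeR adjusted p = 3.6e-04), with overlapping RPKM levels of 35.3 to 46.4 at E17.5 and 43.8 to 65.4 at 2 weeks.

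**Figure D2:**
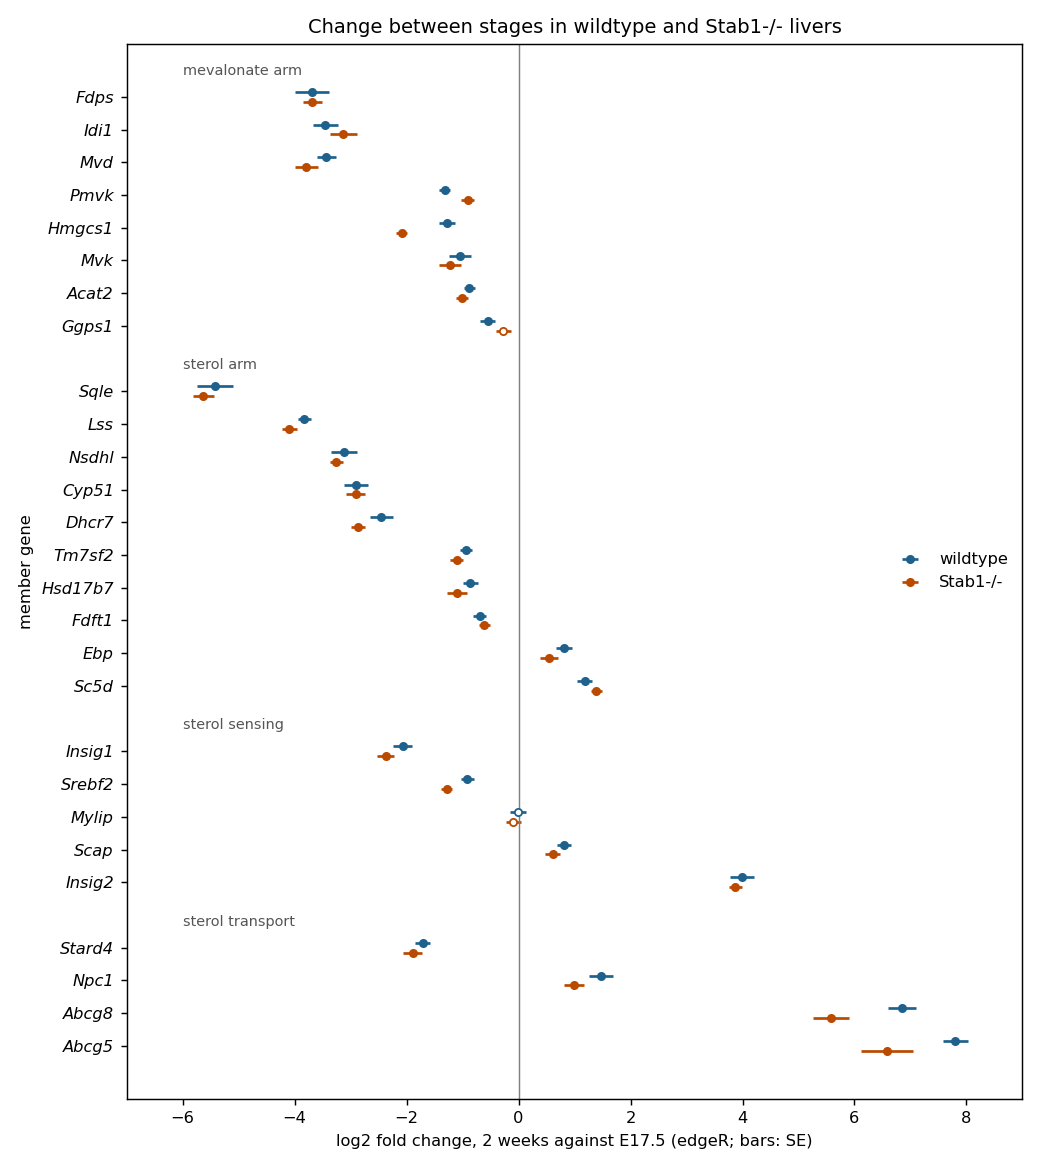
Log2 fold change from E17.5 to 2 weeks for the 27 tested genes (horizontal axis, edgeR, bars show the SE) in wildtype (blue) and Stab1-/- (orange) livers, grouped by role; open symbols were not called. Sqle lies furthest left in both genotypes, and Insig2, Abcg8 and Abcg5 lie furthest right.

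The sensing genes moved in both directions. Srebf2, the transcription factor of the pathway, was at 26.8 ± 2.31 RPKM (SD, n = 4) at E17.5 and 11.05 ± 1.69 RPKM (SD, n = 4) at 2 weeks in wildtype, a log2 change of −0.91 (SE 0.12). Scap, its escort, rose by 0.81 (SE 0.13). The 2 INSIG genes, which encode paralogous retention proteins, changed in opposite directions. Insig1 fell by 2.07 on the log2 scale in wildtype, from 123 ± 25.3 RPKM (SD, n = 4) to 22.9 ± 4.76 RPKM (SD, n = 4).

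Insig2 had wildtype levels of 6.75, 8.19, 7.20 and 7.14 RPKM at E17.5 and 141, 82.8, 74.0 and 67.5 RPKM at 2 weeks. Replicate 1 was the highest at the later stage, and every 2-week library was above every E17.5 library. The log2 change was 3.99 (SE 0.21, edgeR adjusted p = 5.9e-09). In Stab1-/- livers Insig2 was at 7.43, 8.60 and 8.04 RPKM at E17.5 and at 104, 103, 94.4 and 103 RPKM at 2 weeks, a log2 change of 3.87 (SE 0.12). Insig1 was the more abundant of the pair at E17.5 and Insig2 at 2 weeks, in every library of both genotypes.

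Mylip, a ubiquitin ligase that acts on lipoprotein receptors, was the one tested gene called in neither genotype, with log2 changes of −0.01 (SE 0.14) in wildtype and −0.09 (SE 0.13) in Stab1-/-. In RPKM its wildtype libraries did not overlap, at 10.96 to 13.003 at E17.5 and 6.52 to 10.4 at 2 weeks. The scales differ because RPKM divides by total reads: on log2(RPKM + 0.1) the median over all tested genes was −0.37 between the stages in wildtype and −0.23 in Stab1-/-. None of the called members changed direction between these scales, which was checked over all 18 alternative fits in wildtype and 17 in Stab1-/-.

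The transport genes held the largest rises. Abcg5 and Abcg8 encode the 2 subunits of the transporter that moves sterols into bile and out of the intestinal epithelium. Wildtype levels of Abcg5 were 0.697, 0.887, 0.564 and 0.577 RPKM at E17.5, resting on 14 to 21 reads, and 115, 123, 151 and 86.8 RPKM at 2 weeks. The levels at the later stage were above those at E17.5 by over 2 orders of magnitude in the mean, and the log2 change was 7.80 (SE 0.22, edgeR adjusted p = 7.0e-11). Abcg8 had wildtype levels of 0.632, 0.703, 0.596 and 0.712 RPKM at E17.5 and 58.5, 49.2, 85.1 and 45.2 RPKM at 2 weeks, a log2 change of 6.85 (SE 0.24, edgeR adjusted p = 2.8e-10). Replicate 3 was the highest 2-week wildtype library for both genes.

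Npc1, which lets cholesterol leave the lysosome, had wildtype levels of 7.95, 7.99, 9.04 and 8.90 RPKM at E17.5 and 13.1, 13.9, 26.7 and 19.1 RPKM at 2 weeks. The stages did not overlap, and the log2 change was 1.48 (SE 0.21, edgeR adjusted p = 4.7e-05). Stard4, a cytosolic sterol carrier, fell by 1.71 on the log2 scale in wildtype (SE 0.13) and by 1.89 in Stab1-/- (SE 0.17). Npc1l1, the sterol uptake protein of the intestinal brush border, had between 0 and 4 reads in each 2-week library, at or near the floor of 3 reads, so no change could be read from it.

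The order of levels was rearranged between the stages. In wildtype at E17.5 the highest means were those of Fdps (194 ± 24.1 RPKM), Hmgcs1 (174 ± 6.63 RPKM), Insig1 (123 ± 25.3 RPKM) and Idi1 (109 ± 21.3 RPKM; SD, n = 4 for each). At 2 weeks they were those of Abcg5 (119 ± 26.5 RPKM), Sc5d (106 ± 17.2 RPKM), Insig2 (91.4 ± 33.9 RPKM) and Abcg8 (59.5 ± 18.0 RPKM; SD, n = 4 for each). Hmgcs1 stood above Insig1 in every wildtype E17.5 library, while the other neighbours among these named genes overlapped in their libraries, so that their ranks are not distinct.

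The RefSeq promoter table (build GRCm38.p6) gave windows of 250 bases before to 50 bases after the annotated start for 23 of the 28 genes; Fdft1, Fdps, Npc1, Sqle and Stard4 had none. The sterol regulatory element bound by SREBP was searched as TCACNCCAC and as CACCCCAC on both strands, which overlap where both match, and the CCAAT box bound by NF-Y, a frequent partner of SREBP, as CCAAT. TCACNCCAC was found in 1 member, Hmgcs1, and in 1.44% of all genes with a window. CACCCCAC was found in Hmgcs1 and Acat2, and in 3.30% of all genes. CCAAT was found in at least 1 window of 21 of the 23 members (91.3%) and of 41.1% of all genes. Some genes have several windows, and counted by window it was found in 70% of the 30 member windows and 37.4% of all windows. On the strand of the gene alone it was found in 9 members (39.1%) and in 23.7% of all genes. A match is a match of letters and does not show that a factor binds there.

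The bases before the start are shown for Hmgcs1, the gene called between genotypes, for Lss and Idi1 as strongly fallen members of each arm, and for Insig2 as a risen one. Capitals mark TCACNCCAC, CACCCCAC and CCAAT, the last read as ATTGG where it lies on the opposite strand. The Hmgcs1 stretch lies at chr13:119690101-119690350 (plus strand), that of Lss at chr10:76531355-76531604 (plus strand) and that of Idi1 at chr13:8885356-8885605 (plus strand). The Insig2 stretch, from the upstream one of 3 annotated starts, lies at chr1:121332590-121332839 (minus strand). That start was chosen because its window holds CCAAT, while the windows of the other Insig2 starts hold none of the searched patterns.
Hmgcs1: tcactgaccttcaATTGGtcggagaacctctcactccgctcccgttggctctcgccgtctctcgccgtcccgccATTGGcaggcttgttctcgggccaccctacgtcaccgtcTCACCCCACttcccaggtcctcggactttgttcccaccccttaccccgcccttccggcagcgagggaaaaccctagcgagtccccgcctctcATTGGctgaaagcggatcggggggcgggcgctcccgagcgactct
Lss: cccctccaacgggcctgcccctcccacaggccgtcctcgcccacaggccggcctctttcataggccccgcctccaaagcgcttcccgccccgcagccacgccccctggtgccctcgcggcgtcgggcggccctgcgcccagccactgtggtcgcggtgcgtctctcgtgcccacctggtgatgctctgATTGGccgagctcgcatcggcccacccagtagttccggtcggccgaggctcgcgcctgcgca
Idi1: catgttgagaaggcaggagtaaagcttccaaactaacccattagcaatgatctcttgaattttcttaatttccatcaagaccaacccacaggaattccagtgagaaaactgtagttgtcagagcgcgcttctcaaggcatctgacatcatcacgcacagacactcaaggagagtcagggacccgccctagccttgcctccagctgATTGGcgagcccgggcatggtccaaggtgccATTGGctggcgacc
Insig2: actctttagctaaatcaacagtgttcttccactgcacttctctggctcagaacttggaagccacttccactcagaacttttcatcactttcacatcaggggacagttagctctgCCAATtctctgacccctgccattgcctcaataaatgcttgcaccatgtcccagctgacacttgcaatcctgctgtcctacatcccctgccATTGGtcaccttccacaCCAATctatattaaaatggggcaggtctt

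Abcg5 and Abcg8 lie head to head, with 109 bases between their annotated starts at chr17:84683012-84683120. That stretch is shown on the plus strand, the strand of Abcg8, because it lies between the annotated starts of 2 genes that both rose. The 2 genes also share 82 exonic bases in the GENCODE annotation. It holds none of the 3 searched patterns, while the wider windows of both genes hold CCAAT.
Abcg5-Abcg8: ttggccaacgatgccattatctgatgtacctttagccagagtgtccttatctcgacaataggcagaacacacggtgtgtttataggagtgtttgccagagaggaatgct

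Between the genotypes at 2 weeks, 1 of the 27 tested genes was called, against 2.67% of all genes tested (1.74% lower). This was Hmgcs1, the cytosolic HMG-CoA synthase that commits acetyl-CoA units to the mevalonate arm. Its levels in the 4 wildtype libraries were 70.8, 53.0, 40.5 and 59.2 RPKM, and in the 4 Stab1-/- libraries 35.2, 39.1, 36.1 and 38.2 RPKM. The wildtype libraries were spread widely and the Stab1-/- libraries narrowly, and the lowest wildtype library, replicate 3, lay just above the highest Stab1-/- library. The mean was 37.2 ± 1.84 RPKM (SD, n = 4) in Stab1-/- and 55.9 ± 12.6 RPKM (SD, n = 4) in wildtype, 66.5% of the wildtype mean. The log2 change was −0.67 (SE 0.14, edgeR adjusted p = 0.0307), and the exact permutation test on RPKM gave a two-sided p = 0.0286, the smallest that 4 against 4 libraries allow.

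The call of Hmgcs1 was close to the threshold. It was lost when any one of the 4 Stab1-/- libraries, or wildtype replicate 1 or 4, was left out (log2 changes of −0.71 to −0.55, edgeR adjusted p of 0.0578 to 0.108). It was also lost in all 3 limma fits on RPKM. The summed hepatocyte markers were 44852 to 56778 RPKM in the Stab1-/- libraries and 60568 to 79013 RPKM in the wildtype libraries at 2 weeks, without overlap, although 0 of the 7 markers was called. The summed granulocyte markers did not overlap either, at 178 to 403 RPKM in Stab1-/- and 29.97 to 138 RPKM in wildtype, with none of the 6 tested markers called. Of the other cell type lists, 3 of 6 stellate, 1 of 6 sinusoidal endothelial and 1 of 5 proliferation markers were called lower in Stab1-/-, and none was called higher. The part of these cell types in the Hmgcs1 difference was not tested.

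The other 26 genes were not called at 2 weeks, and the groups overlapped in RPKM for each of them, where 14.9% of all tested genes did not overlap. Their log2 changes ran from −0.53 to 0.33, with a lowest edgeR adjusted p of 0.144. Of all 27, 20 had a negative and 7 a positive value, with a median of −0.21 against −0.01 over all genes. With log2(RPKM + 0.1) the median of the members was −0.10 and that of all tested genes 0.08, so the members lay lower by a similar amount on both scales. Over all genes the log2 changes at 2 weeks were lower where the GC content of the transcripts was higher (Spearman correlation −0.32). With GC offsets the median of the members was −0.15, against 0.00 over all genes, and Hmgcs1 stayed called. Dhcr7 had the next largest negative value, −0.53 (SE 0.21, edgeR adjusted p = 0.166), with 5.10 ± 0.413 RPKM (SD, n = 4) in Stab1-/- and 6.86 ± 2.34 RPKM (SD, n = 4) in wildtype.

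At E17.5 none of the 27 tested genes was called by edgeR, against 0.366% of all genes, and 5 had an unadjusted p under 0.05, as did 12.9% of all genes. Hmgcs1 was at 174, 172, 184 and 168 RPKM in wildtype and at 202, 176 and 176 RPKM in Stab1-/-, overlapping groups with a log2 change of 0.14 (SE 0.09, edgeR adjusted p = 0.518). The RPKM of the groups did not overlap for 4 of the 27 genes (12.2% of all tested genes): Pmvk, Tm7sf2 and Mylip were lower and Abcg8 higher in Stab1-/-. Pmvk was at 29.8 ± 5.03 RPKM (SD, n = 3) in Stab1-/- and 38.9 ± 2.42 RPKM (SD, n = 4) in wildtype, with a log2 change of −0.32 (SE 0.12, edgeR adjusted p = 0.317).

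Hsd17b7 had the lowest adjusted p at E17.5. Its levels were 10.8, 12.2, 10.5 and 9.73 RPKM in wildtype and 15, 19.2 and 11.9 RPKM in Stab1-/-, with replicate 3 of Stab1-/- under the highest wildtype library. The log2 change was 0.57 (SE 0.16, edgeR adjusted p = 0.189). DESeq2 called it, alone among the members (log2 change 0.58, DESeq2 adjusted p = 0.0362). At 2 weeks, in other libraries, its value was 0.33 (SE 0.15, edgeR adjusted p = 0.219), with 4.05, 5.91, 3.83 and 4.80 RPKM in wildtype and 7.82, 5.97, 5.16 and 5.93 RPKM in Stab1-/-.

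**Figure D3:**
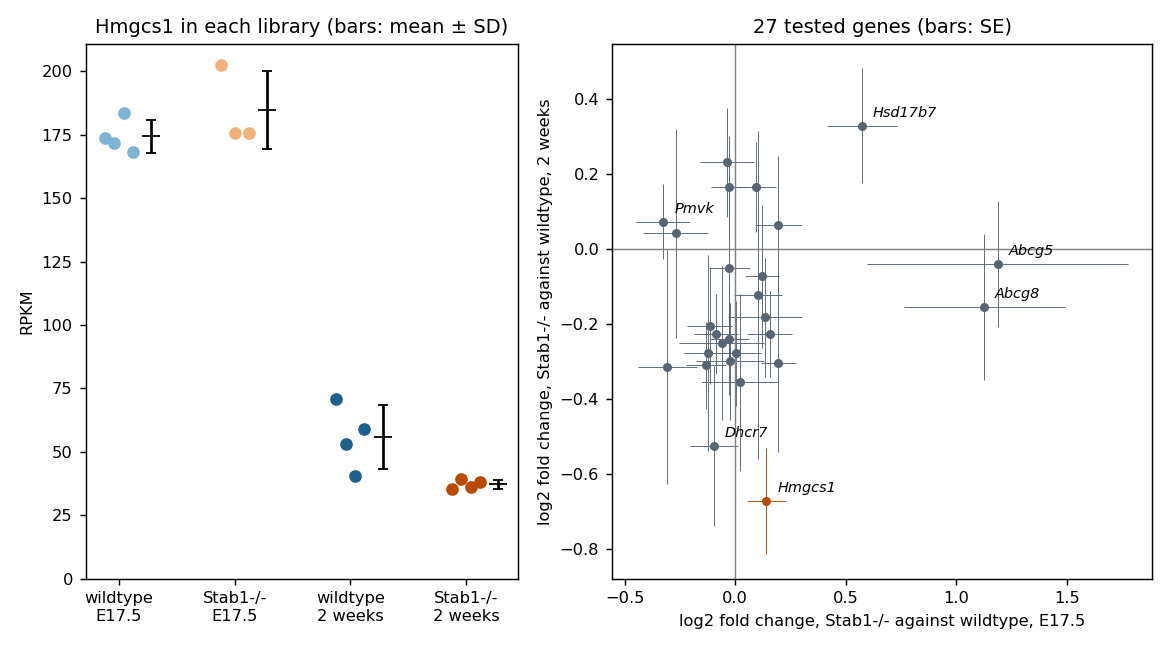
Left, Hmgcs1 in RPKM (vertical axis) in each library of the 4 groups, with mean and SD beside the points; the Stab1-/- libraries at 2 weeks lie between 35.2 and 39.1, under the 4 wildtype libraries. Right, log2 fold change of Stab1-/- against wildtype at E17.5 (horizontal axis) and at 2 weeks (vertical axis) for the 27 tested genes, with SE bars; Hmgcs1, in orange, is the one called at 2 weeks, and none was called at E17.5.

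The effect of genotype differed between the stages for 1 of the 27 genes by the interaction term, against 1.81% of all genes. This was again Hmgcs1, whose genotype effect at 2 weeks minus that at E17.5 was −0.78 (SE 0.18, edgeR adjusted p = 0.0437). In terms of the stage change, Hmgcs1 fell by 1.28 on the log2 scale in wildtype (SE 0.14) and by 2.09 in Stab1-/- (SE 0.10). The call held in 10 of 23 alternative fits. It was lost in 9 of the 15 fits with a single library left out (Stab1-/- 2-week replicates 1, 2 and 3, wildtype 2-week replicate 4, Stab1-/- E17.5 replicates 1 and 2, wildtype E17.5 replicates 1, 2 and 4), in all 3 limma fits and with a replicate block. Over all fits the value was −0.90 to −0.63. At E17.5 the summed hepatocyte markers were 47685 to 55065 RPKM in Stab1-/- and 43933 to 47679 RPKM in wildtype. The granulocyte sums were 3427.7 to 3746.8 and 4868.5 to 7940.1 RPKM. The hepatocyte sums of the genotypes nearly met, at 47685 and 47679 RPKM, while the granulocyte sums were apart. Both sums lay in the reverse direction of those at 2 weeks, with no marker called at E17.5. In the interaction 2 of 7 granulocyte markers were called higher and 1 of 6 sinusoidal endothelial markers lower. The part of these cell types in the interaction was not tested. Pmvk had an interaction value of 0.43 (SE 0.15, edgeR adjusted p = 0.105) and Abcg8 one of −1.24 (SE 0.43, edgeR adjusted p = 0.109), and neither was called.

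Replicate 1 of Stab1-/- at E17.5 stood apart in the transport genes. Npc1l1 was at 4.32 RPKM in it, from 208 reads, and at 0.0836 and 0.103 RPKM in the other Stab1-/- libraries and 0.102, 0.0209, 0.0399 and 0.0613 RPKM in wildtype. Abcg5 was at 3.40 RPKM in that library, and at 0.464 and 0.666 RPKM in the other 2. Abcg8 was at 2.48, 0.885 and 0.822 RPKM in the 3 Stab1-/- libraries. In each of the 3 genes this library was the highest of all 7 at E17.5. The other 6 lay within 0.464 to 0.887 RPKM for Abcg5 and 0.596 to 0.885 RPKM for Abcg8, and held 1 to 5 reads of Npc1l1.

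The fitted changes followed that library. With it, Abcg5 had a log2 change between genotypes at E17.5 of 1.19 (SE 0.59, edgeR adjusted p = 0.428) and Abcg8 one of 1.13 (SE 0.36, edgeR adjusted p = 0.254). Without it, the values were −0.19 (SE 0.33) and 0.45 (SE 0.23). The rise of Abcg5 between the stages in Stab1-/- livers was 6.58 (SE 0.46) with it and 7.94 (SE 0.28) without it, and that of Abcg8 was 5.58 (SE 0.32) and 6.24 (SE 0.24).

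The same library had the highest levels of intestinal epithelial genes. The summed level of 11 intestinal markers was 343 RPKM in it and 24.3 to 43.9 RPKM in the other 6 E17.5 libraries. Stab1-/- replicate 3 was the highest of those 6, with 10 of the 11 markers above the floor of 3 reads, among them Cdx2 at 19 reads against 0 or 1 in the wildtype E17.5 libraries. In replicate 1, 10 of the 11 markers were above all other E17.5 libraries, among them the transcription factor Cdx2 at 11.2 RPKM against at most 0.836 RPKM. Cdx1, Cdx2 and Sis had no reads in any 2-week library, where Fabp2, at 102 ± 41.9 RPKM (SD, n = 4) in wildtype, made up most of the sum. The part of these cells in the levels of Npc1l1, Abcg5 and Abcg8 was not tested. Of the 28 genes, 11 were above and 2 below all other E17.5 libraries in this one. The share of all genes placed in this way was not counted. Beside Npc1l1, Abcg5 and Abcg8, those above were Hmgcs1, Sqle, Mvd and Srebf2, at 1.10 to 1.17 times the next library. Mvk, Fdft1, Lss and Npc1 were above by less, at 1.01 to 1.06 times the next library. A list of 5 exocrine pancreas markers was highest in wildtype E17.5 replicate 2, with a sum of 2043.7 RPKM. That sum was 204 RPKM in wildtype replicate 3 and 11.7 to 71.8 RPKM in the other E17.5 libraries. Its part in the levels of the members was not tested.

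**Figure D4:**
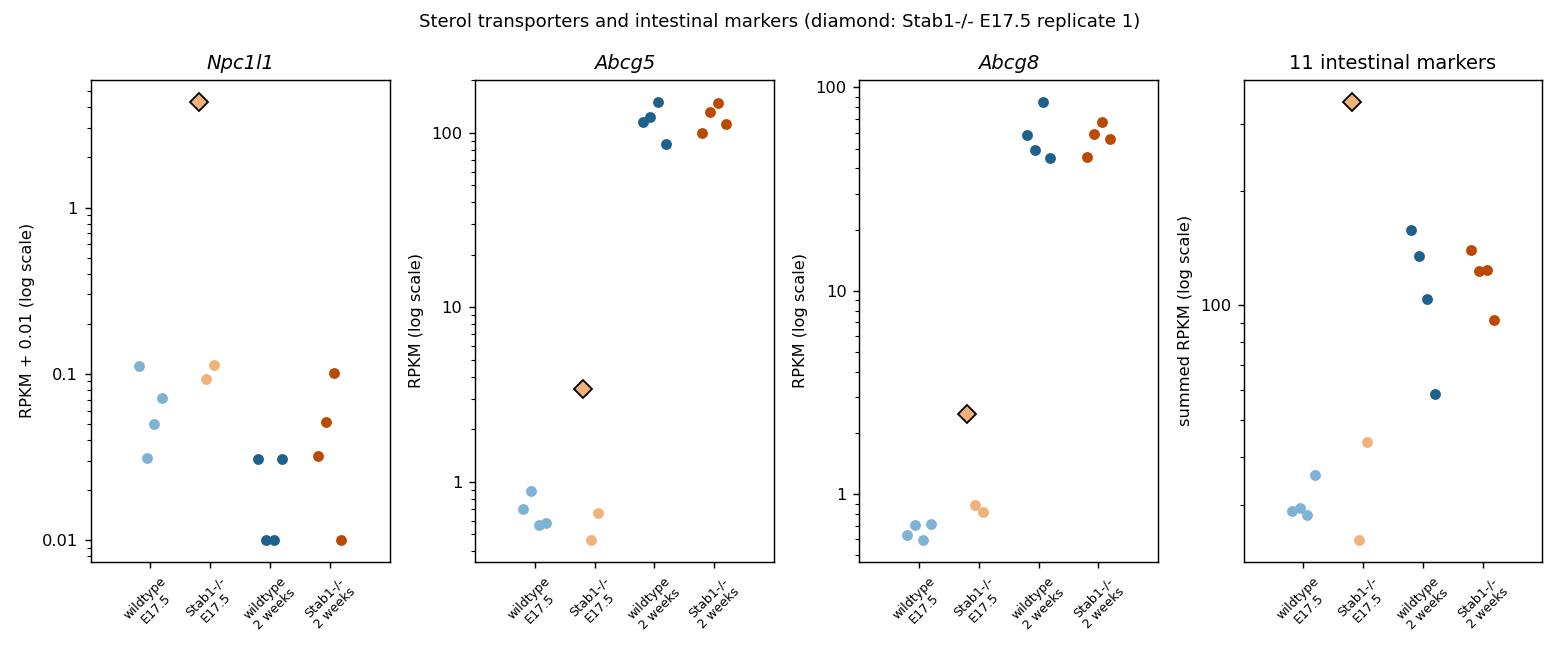
Level of Npc1l1 (as RPKM + 0.01), Abcg5, Abcg8 and the sum of 11 intestinal epithelium markers (vertical axes, RPKM, log scale) in each library of the 4 groups. The diamond, Stab1-/- E17.5 replicate 1, lies above the other E17.5 libraries in all 4 panels, while both subunits of the exporter are far higher in every 2-week library.

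As a mean of log2(RPKM + 0.1) over the 28 genes, the set stood at 4.43 ± 0.06 in wildtype at E17.5 (SD, n = 4), 4.49 ± 0.26 in Stab1-/- at E17.5 (SD, n = 3), 3.40 ± 0.13 in wildtype at 2 weeks (SD, n = 4) and 3.38 ± 0.07 in Stab1-/- at 2 weeks (SD, n = 4). The difference between the stages was −1.03 in wildtype and −1.11 in Stab1-/-, beside −0.43 and −0.28 for the mean over 13885 expressed genes. Rescaled with TMM factors the wildtype difference was −0.68, and as a median over the members −1.66. Between the genotypes the set differed by −0.02 at 2 weeks and 0.06 at E17.5, beside 0.08 and −0.06 for all expressed genes, in each case by less than the spread between libraries. Stab1-/- replicate 1 had the highest mean at E17.5, 4.78 against 4.39 and 4.29. Left without Npc1l1, Abcg5 and Abcg8, a choice made after seeing that library, the stage differences were −1.67 in wildtype and −1.65 in Stab1-/-, and the difference between genotypes at E17.5 was −0.06.

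**Figure D5:**
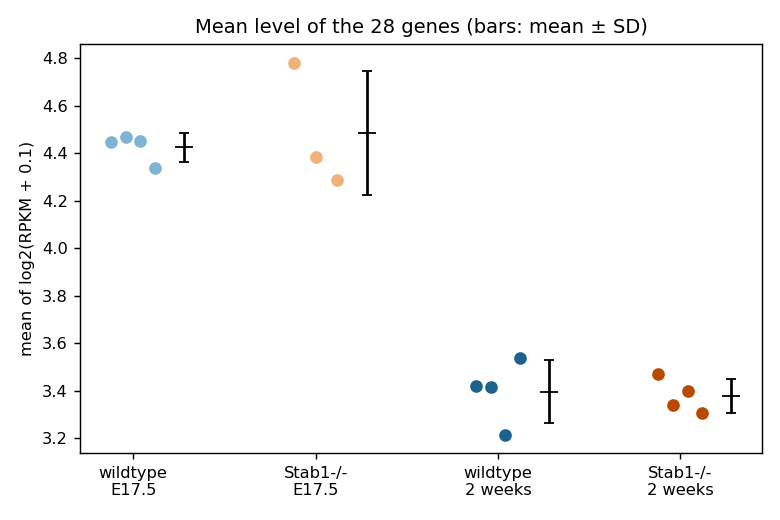
Mean of log2(RPKM + 0.1) over the 28 genes (vertical axis) in each library of the 4 groups, with group mean and SD beside the points. The E17.5 libraries lie between 4.29 and 4.78 and the 2-week libraries between 3.21 and 3.54, with no separation of the genotypes at either stage.

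Within each group the same library was often at one end of the range for the strongly fallen genes, at both stages. For the 9 members that fell by over 2 on the log2 scale in wildtype, replicate 3 was the lowest of the 4 wildtype 2-week libraries in 7, and replicate 1 the highest of the 4 Stab1-/- 2-week libraries in 7. At E17.5, Stab1-/- replicate 1 was the highest of its group in 8 of the 9 and wildtype replicate 4 the lowest of its group in 7. Over the 27 tested members these libraries held the same places in 13, 13, 18 and 16 genes, which is a description without a test. The share of all genes in which they held these places was not counted. The pattern is therefore not shown to be particular to the members. Sqle had the widest range in wildtype at 2 weeks, its highest library being at 7.11 times its lowest, followed by Fdps at 3.09 times and Cyp51 at 2.61 times. At E17.5 the ranges in wildtype were at most 1.68 times in the members other than Npc1l1.

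A further 46 genes around the pathway were examined from 4 lists. None was called between the genotypes at either stage or in the interaction by edgeR. Between the stages in wildtype 24 were called higher and 10 lower at 2 weeks, together 73.9%, close to the 71.9% of all genes (34.9% higher, 37% lower). Of 11 genes for sensing and proteolysis, 6 rose and 1 fell (63.6% called), with a median of 0.27. Nr1h3, the liver X receptor alpha that responds to oxysterols, rose most, from 15.3 to 44.9 RPKM (log2 change 1.91, SE 0.10), while Rnf139, a ubiquitin ligase, fell by 0.69 (SE 0.15). One of the 6, Nr1h2, had the opposite sign on the RPKM scale.

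Of 11 genes for sterol transport and storage, 5 rose and 3 fell (72.7% called), with a median of 0.20. Gramd1c, a sterol transfer protein, rose by 1.73 (SE 0.22), and Soat1, an enzyme that esterifies cholesterol, fell by 2.30 (SE 0.16) from 13.3 to 2.11 RPKM. Of 12 genes on the isoprenoid branches 4 rose and 3 fell (58.3% called), with a median of −0.07. Rabggta, a subunit of Rab geranylgeranyl transferase, rose by 1.16 (SE 0.12), and Fntb, a subunit of farnesyl transferase, fell by 1.69 (SE 0.18).

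Of 12 genes for acetyl-CoA supply, paralogs and electron donors 9 rose and 3 fell, with a median of 1.37. The 3 that fell were Acly and Acss2, which make cytosolic acetyl-CoA, and Lbr, a sterol C14 reductase of the nuclear envelope. Lbr fell most, by 3.13 (SE 0.13) from 77.1 to 6.86 RPKM, where Tm7sf2, which catalyses the same reaction, fell by 0.94. Tm7sf2 shares exonic bases with Vps51 on the same strand, and the part of Vps51 reads in its level was not tested. Acat3, a close copy of Acat2, rose most, by 2.73 (SE 0.10). The counts are headed as unique reads, so reads that fit both copies may be missing from both.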

How the data were processed

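Liver RNA of 15 mice was sequenced, and the authors deposited one table with gene read counts and RPKM values for each library, both named per the labels. The counts were deposited unnormalized and are headed as numbers of unique reads. The RPKM values had been divided by gene length and total reads by the authors. The aligner, genome build, annotation and strand setting are not given in the sources used here. The genes of the set and the lists of other genes were chosen with earlier results of these data known.

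Counts were fitted with edgeR 4.0.16 (R 4.3.3; low counts removed by filterByExpr at its minimum of 10 reads and a total of 15, TMM factors, quasi-likelihood F test, Benjamini-Hochberg adjustment over all genes tested), each contrast on its own groups and the interaction on all 15 libraries. Alternatives were DESeq2 1.42.0, no filter, median-of-ratios factors, limma 3.58.1 on log2(RPKM + 0.1) and log2(RPKM + 1) and with mean RPKM of at least 1, GC offsets, a replicate block, all libraries in one fit, and each library left out. The code was tested on simulated counts with 200 changed genes. Exact permutation tests were two-sided. Genes named with full values were the members called between genotypes or in the interaction, the 5 called members with the largest rise and the 5 with the largest fall between stages in wildtype, and members near the floor of 3 reads or with 1 library far from its group. Of the other lists, the largest rise and the largest fall were named, and Acly, Acss2 and Nr1h2 were added after their values were seen. Exonic overlaps came from GENCODE, and 12 members share bases with another gene. Read depth was even (9.66 to 10.96 M reads on genes), and counting error is largest for genes with few reads.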

Additional observations from a re-analysis of the deposited data

Results flagged for a closer look

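In the 84 groups of 4 libraries, 5 member levels had a library far from the other 3, where chance gives about 4.2. Mvk was at 7.88 RPKM in wildtype 2-week replicate 4, with the nearest library at 4.65. Idi1 was at 14.7 RPKM in Stab1-/- 2-week replicate 1, with the nearest at 7.15. Fdft1 was at 36.4 RPKM in Stab1-/- 2-week replicate 3 (nearest 31.2) and Insig2 at 94.4 RPKM in the same library (nearest 102.6). Ggps1 was at 6.57 RPKM in wildtype E17.5 replicate 2 (nearest 5.92). The effect of genotype on Hmgcs1 differed between the stages by a log2 value of −0.78 in the interaction test.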

How the results depend on the processing

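The stage results were stable between fits: 26 to 27 members were called in wildtype under 18 alternatives and 24 to 26 in Stab1-/- under 17. The 10 genes named for the largest changes kept their direction and call in all of them. These fits use the same libraries, so they cannot tell stage from an unlabelled preparation batch. The single call between genotypes at 2 weeks, Hmgcs1, went to 0 in the 3 limma fits and ranged from 0 to 1 with a library left out. At E17.5 the count went from 0 to 1 with DESeq2 (Hsd17b7, 0.58) and stayed at 0 with each library left out. For the interaction it was 2 with DESeq2 (Hmgcs1 and Abcg8), 0 in the limma fits on log2(RPKM + 0.1) and with mean RPKM of at least 1, 1 on log2(RPKM + 1), where the gene was Pmvk, and 0 to 1 with a library left out. Over all alternatives the Hmgcs1 log2 change at 2 weeks was −0.79 to −0.55 and its interaction −0.90 to −0.63. Abcg5 at E17.5 ranged from −0.19, a changed sign, without Stab1-/- replicate 1 to 1.60 without replicate 2. The cause was not tested.

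Replicate numbers did not meet the criterion for pairing, a correlation over 0.1 in every same-numbered pair. The correlations were 0.02 to 0.20 between genotypes at 2 weeks (mean 0.14, other pairs −0.05), where 5 of 8 libraries correlated best with their own number, 0.01 to 0.22 between stages in wildtype (4 of 8), −0.17 to 0.10 in Stab1-/- and −0.18 to 0.00 at E17.5, where 0 of 7 did. With a replicate block, all genes called at 2 weeks numbered 1181 in place of 340 and Hmgcs1 stayed called, while the interaction count went to 0 (Hmgcs1 −0.73).

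The mean level between stages was −0.68 in wildtype and −0.87 in Stab1-/- after TMM rescaling, −1.66 and −1.55 as a median over members, and −1.67 and −1.65 without Npc1l1, Abcg5 and Abcg8; between genotypes at E17.5 the median over members gave −0.18. The CCAAT count was 9 on the strand of the gene only. Depth limited Npc1l1, with at most 5 reads in 14 libraries.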
